A study of Drosophila melanogaster with 8 samples.

Results

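The data described here are the H3K9me2 regions on the euchromatic arm of the Drosophila X chromosome. H3K9me2 is histone H3 dimethylated at lysine 9. The members were taken by position: a region belonged if it lay on the X and its midpoint fell at least 1.00 Mb from the telomeric end and more than 5.00 Mb from the pericentromeric end of the 23542271-bp chromosome, a stretch of 17.5 Mb. They numbered 742 of the 31871 regions in 3 deposited lists: 323 regions with more H3K9me2 in NelfA*/+ flies (NelfA-higher), 18 with more in control siblings (control-higher) and 401 common to both genotypes. The first member lay at X:1052227-1052434 and the last at X:18508354-18508619, while the nearest regions left out were common regions at X:951588-951943 and X:18556201-18556404.

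The regions came from ChIP-seq of the heads of 50-day-old male flies (Day 50). NelfA*/+ flies carried 1 copy of the KG09483 transposon insertion in Nelf-A and had been backcrossed to w1118, and their control siblings carried none. Each genotype had 2 H3K9me2 ChIP libraries and 2 input libraries, with 100 heads per biological replicate, and the antibody was ab1220. Whole heads mix neurons, glia, fat body and muscle, so a change in every cell and a change in the share of cells that carry the mark cannot be told apart. The lists hold 1 score per region and no value per library. No spread between replicates and no depth could therefore be given, no test was made, and every comparison below is a description of the calls. A list was tied to its genotype because its length equals the number of regions the study gives for that kind.

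NELF is the complex that holds RNA polymerase II shortly after it has started transcription, and Nelf-A is one of its subunits. H3K9me2 is bound by HP1 proteins and is densest around centromeres, on the fourth chromosome and over transposable elements (TEs), whereas the euchromatic arms carry it in short, scattered stretches. The male X is present in a single copy and is transcribed at a raised rate by the dosage compensation complex, which contains the roX RNAs and the acetyltransferase MOF. Its single copy next to paired autosomes is also a difference in template, and its part in the densities given below was not tested.

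The sequences that follow were read from the RefSeq copy of the BDGP6 assembly (plus strand, 5′ to 3′) and show what kinds of sequence the lists contain. The first is the coding region of sog with a score of 6.13, the highest of any NelfA-higher region that met a common region (X:15607333-15607580), and the second is the first 200 bases of the longest NelfA-higher region of yl (X:14195227-14195426). Capitals mark the bases that also lie in a common region, 22 in sog and 67 in yl.
sog: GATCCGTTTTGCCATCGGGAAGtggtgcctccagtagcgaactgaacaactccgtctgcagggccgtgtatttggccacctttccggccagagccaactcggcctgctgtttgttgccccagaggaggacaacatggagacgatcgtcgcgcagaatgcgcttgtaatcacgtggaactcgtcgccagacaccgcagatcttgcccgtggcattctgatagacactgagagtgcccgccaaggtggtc
yl: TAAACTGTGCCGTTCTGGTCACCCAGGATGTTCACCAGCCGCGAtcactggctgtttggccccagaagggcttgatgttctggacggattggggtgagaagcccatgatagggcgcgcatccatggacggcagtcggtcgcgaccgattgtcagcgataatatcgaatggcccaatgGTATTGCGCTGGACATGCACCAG

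A mucin gene, Muc11A, shows a tandem repeat on which both kinds of region lie. Capitals mark bases inside a 20-base word found in both its NelfA-higher region (X:12062851-12063086, score 2.62) and a common region (X:12061165-12061391, score 0.239). All 236 bases of the first and 181 of the 227 bases of the second are so marked. Of the 20-base words of the first, 93.5% occur more than once in the assembled chromosomes. Whether whole reads, which are longer than these words, could be assigned to 1 repeat unit was not tested.
Muc11A NelfA-higher: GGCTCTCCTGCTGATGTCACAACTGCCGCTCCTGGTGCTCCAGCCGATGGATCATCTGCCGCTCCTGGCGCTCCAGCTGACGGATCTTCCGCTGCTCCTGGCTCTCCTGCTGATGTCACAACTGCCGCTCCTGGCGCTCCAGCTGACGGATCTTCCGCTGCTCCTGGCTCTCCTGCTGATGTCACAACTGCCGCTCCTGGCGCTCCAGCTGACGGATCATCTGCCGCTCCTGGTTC
Muc11A common: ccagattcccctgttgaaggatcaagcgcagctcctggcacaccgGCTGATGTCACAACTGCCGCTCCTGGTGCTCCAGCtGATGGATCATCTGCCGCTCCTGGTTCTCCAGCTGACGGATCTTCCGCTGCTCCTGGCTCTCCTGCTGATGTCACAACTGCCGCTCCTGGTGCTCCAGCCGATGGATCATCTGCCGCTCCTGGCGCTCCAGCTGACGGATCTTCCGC

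The NelfA-higher region with the highest score, 10.8, lay in a flea retrotransposon inside an intron of OdsH, a homeobox gene (X:17793782-17793997). Capitals here mark the 39 bases covered by a 20-base word found only once in the assembled chromosomes.
flea in OdsH: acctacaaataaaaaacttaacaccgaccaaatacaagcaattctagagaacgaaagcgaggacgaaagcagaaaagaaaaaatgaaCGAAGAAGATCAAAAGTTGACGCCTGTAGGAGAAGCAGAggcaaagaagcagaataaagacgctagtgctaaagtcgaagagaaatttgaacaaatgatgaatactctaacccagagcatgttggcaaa

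From the control-higher list, the region with the highest score, 5.91, was coding sequence of CG2961 (X:10231549-10231749), in which capitals mark 19 soft-masked bases. The longest control-higher region ended at the start of Act5C, which encodes a cytoplasmic actin. Its last 200 bases are shown (X:5900671-5900870), and capitals mark the 10 bases of the annotated transcript.
CG2961: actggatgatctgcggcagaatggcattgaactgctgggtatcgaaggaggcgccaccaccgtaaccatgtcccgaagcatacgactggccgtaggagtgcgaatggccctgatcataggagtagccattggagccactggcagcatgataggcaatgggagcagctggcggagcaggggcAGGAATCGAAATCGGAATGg
Act5C: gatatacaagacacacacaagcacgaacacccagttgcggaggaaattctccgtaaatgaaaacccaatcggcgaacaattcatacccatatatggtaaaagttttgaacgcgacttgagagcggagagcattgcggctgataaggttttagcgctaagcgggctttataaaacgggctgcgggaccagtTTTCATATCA

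On the X arm the calls ran almost wholly toward NelfA*/+ flies. NelfA-higher regions made up 94.7% of the 341 differential regions, against 83.9% over all differential regions of the series and 92.2% over the matching parts of 2L, 2R, 3L and 3R, where the share ran from 91.2% on 3L to 93.3% on 3R. Of all 742 members, 43.5% were NelfA-higher, against 29.4% of all regions in the lists and 36.1% in the matching autosomal parts. Control-higher regions made up 2.43%, against 5.64% and 3.07%. The NelfA-higher regions covered 103 kb and the control-higher regions 6.37 kb, a ratio of 16.2. In the autosomal parts together the ratio was 15.1, from 13.5 on 3L to 17.9 on 2L, so the X value lay within their range. Whether the X share differs from that of the autosomal arms was not tested, since neighbouring regions are not independent.

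All 3 kinds of region were sparser on the X arm than on any of the 4 autosomal arms. NelfA-higher regions numbered 18.4 per Mb, against 36.4 on the autosomal arms together (28.1 to 45.005). Common regions numbered 22.9 per Mb against 61.2 (44.5 to 78.4), and control-higher regions 1.03 per Mb against 3.09. Common regions were the more depleted, so that the X arm had 0.805 NelfA-higher regions for each common region and the autosomal arms 0.594 (0.574 to 0.632). The arm resembled the autosomes in GC and coding content, with 42.5% GC and 18.4% coding bases against 42.6% and 19.8%. Annotated TEs made up 3.42% of its bases, against 3.04% to 4.03% on 2L, 3L and 3R and 5.89% on 2R, the arm with the highest densities. All parts were cut at the same distances from the chromosome ends, so they may hold unlike amounts of heterochromatin. The part of this in the densities was not tested.

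**Figure D1:**
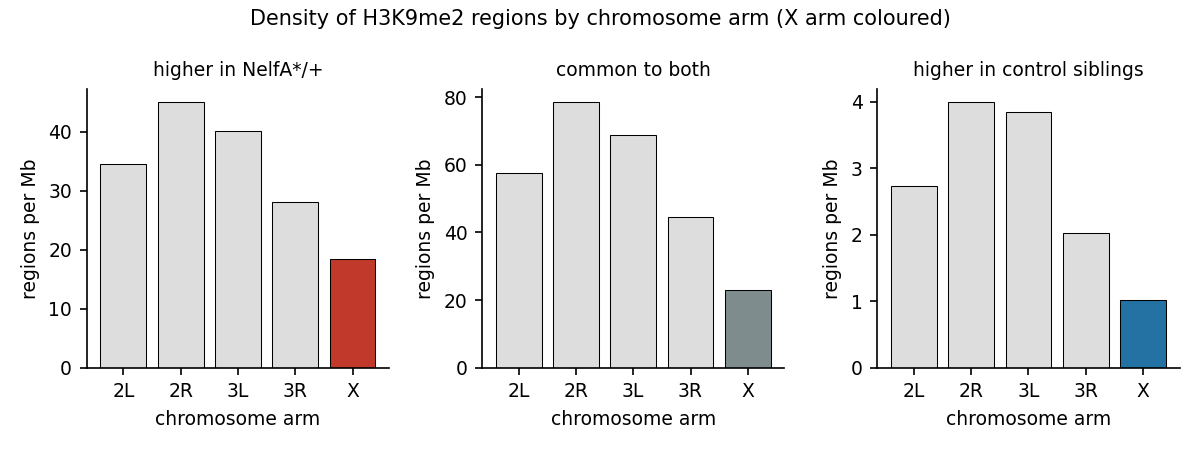
Regions per Mb on the matching part of each chromosome arm for the 3 lists (each panel has its own axis from 0). The X arm, coloured, is the lowest in every panel, at 18.4, 22.9 and 1.03 regions per Mb.

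The regions were short. NelfA-higher regions had a median length of 276 bp (200 to 938), common regions 301 bp (200 to 1900) and control-higher regions 248.5 bp (201 to 1679). Scores of NelfA-higher regions had a median of 2.39 (1.19 to 10.8), and 30.7% reached 3. Scores of control-higher regions had a median of 2.30 (1.39 to 5.91), and those of common regions were all lower, with a median of 0.253 (0.0259 to 0.804). The calling that divided the lists may itself set the gap between common and differential scores, so the gap is not read as a result. The score's scale is not named in the files, so scores rank regions within a list and are not compared as amounts of H3K9me2.

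Coding sequence was the main place of these regions. Of the bases in NelfA-higher regions, 80.3% were coding, against 17.2% of the bases of 200-bp tiles of the arm that touched no region and 66.0% in NelfA-higher regions of the autosomal arms. Common regions on the X arm had a like share, 81.1%, and control-higher regions 55.3%, a share that the 1679-bp noncoding region at Act5C lowered. Wholly coding regions made up 204 of the NelfA-higher regions (63.2%), 248 of the common regions (61.8%) and 8 of the control-higher regions. By midpoint, 178 NelfA-higher regions lay in exons away from starts (55.1%), 96 within 1 kb of a transcription start (29.7%), 30 in introns (9.29%) and 19 between genes (5.88%). The common regions were split in nearly the same way, with 53.1%, 29.9%, 9.48% and 7.48%. In the tiles, introns held 43.6% and exons 18.3%.

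The regions were also rich in G and C, as coding sequence of the fly is. Median GC content was 57.6% in NelfA-higher, 57.2% in common and 54.0% in control-higher regions, against 42.0% in the tiles. Tiles weighted to the GC content of the NelfA-higher list had 60.9% coding bases and 44.8% exon midpoints, which lies between the unweighted tiles and the regions. Within each GC class the NelfA-higher regions held more coding bases than the tiles. The shares were 93.1% against 86.5% at 60% GC or more, 84.8% against 67.3% from 55% to 60%, and 72.1% against 36.5% from 50% to 55%. Exon midpoints were more frequent in NelfA-higher regions than in tiles in the classes from 45% to 60% GC. They were not at 60% or more (59.8% against 62.9%) or under 45% (9.09% against 11.2%). Only 11 NelfA-higher regions had under 45% GC. Base composition also affects library amplification and sequencing, and its part in the calls was not tested.

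**Figure D2:**
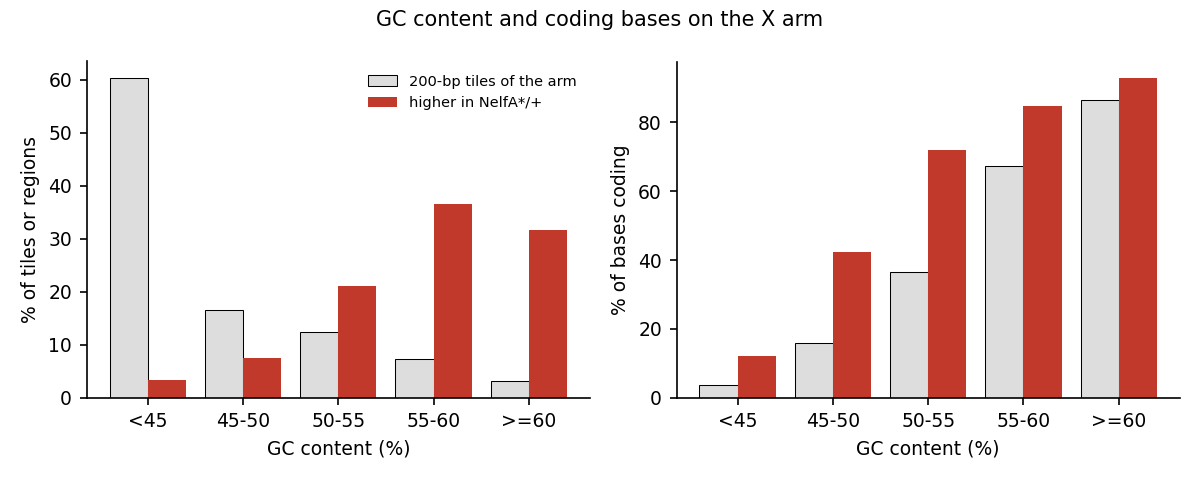
Left, share of 200-bp tiles (grey) and of NelfA-higher regions (red) in each GC class. Right, share of their bases that are coding. Most tiles are below 45% GC, most NelfA-higher regions are above 55%, and red exceeds grey in coding share in all classes.

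NelfA-higher regions stood both beside common regions and far from them. Of the 323, 103 shared at least 1 bp with a common region (31.9%), 60 more lay within 1 kb (18.6%), 63 between 1 and 10 kb (19.5%) and 97 beyond 10 kb (30.0%), up to 228 kb. On the autosomal arms 47.5% overlapped and 8.64% lay beyond 10 kb, in a setting with more common regions per Mb. The overlapping regions had the lowest scores, with a median of 1.88 and 12 of 103 at 3 or more. Those within 1 kb without overlap had a median of 2.86, with 27 of 60 at 3 or more, and those beyond 10 kb 2.62, with 38 of 97. The calling that divided the lists may itself give low scores to regions that overlap common ones. Its part in this order was not tested, so the order is not read as a result. Coding bases made up 90.3% of the overlapping regions, 89.8% of those within 1 kb, 61.3% of those between 1 and 10 kb and 72.9% of the distant ones, whose median GC content was 57.6%.

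**Figure D3:**
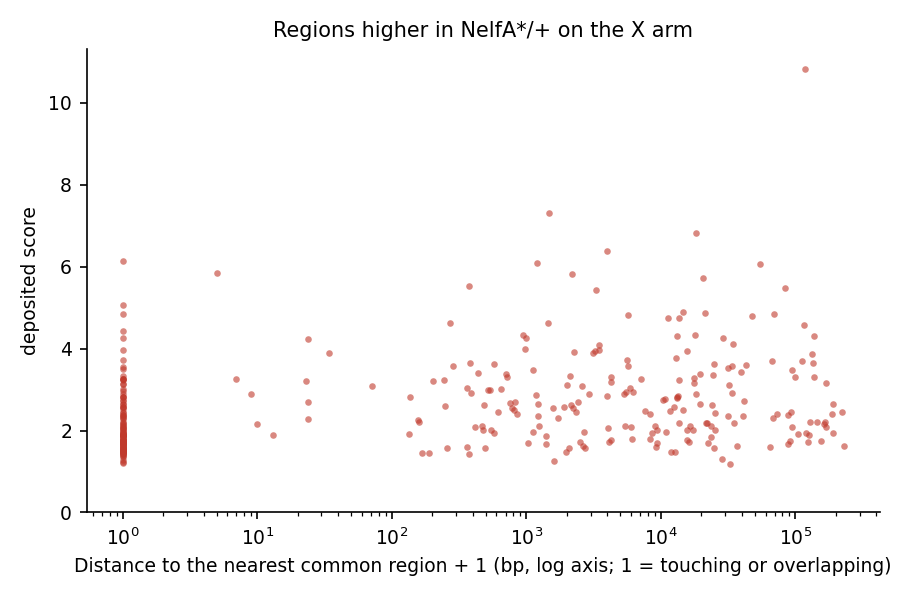
Deposited score of each of the 323 NelfA-higher regions against its distance to the nearest common region (log axis, 1 bp added). The column at the left holds overlapping and touching regions, few of which exceed 4, and the highest score, 10.8, stands at 117 kb.

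Several regions often lay together in 1 gene. Joining members less than 1 kb apart gave 441 clusters, of which 291 were single regions and 19 held at least 5. NelfA-higher regions occurred in 267 clusters, in 145 without any other kind and in 118 with a common region. Of 2164 annotated genes on the arm, 229 (10.6%) held a NelfA-higher region, 224 a common region, 126 both and 18 a control-higher region. Genes with a NelfA-higher region were long, with a median of 6.64 kb against 2.07 kb for all genes, and 23 held at least 3.

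Among the genes with most NelfA-higher regions the shortest was yl, which encodes the yolk protein receptor of the oocyte. Its 6.75 kb (X:14193214-14199958) held 6 NelfA-higher and 9 common regions, interspersed along its coding exons, and a common region at X:14195404-14195727 lay wholly inside a NelfA-higher one. The NelfA-higher regions scored 2.28, 3.14, 1.88, 2.15, 1.85 and 1.89 in order from the 5′ end, and 5 of the 6 shared bases with a common region. The longest, 892 bp, was wholly coding. With 3 further NelfA-higher regions within 5 kb, the gene lay in the 100-kb window with the most NelfA-higher regions, 14, beside 21 common ones.

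The 5 X chorion genes and dec were looked up after the values of yl had been seen. The chorion genes encode eggshell proteins and are amplified in follicle cells of the ovary. NelfA-higher regions lay in 4 of the 5, where 10.6% of all genes of the arm hold one, with scores of 2.103 in Cp7Fa, 3.37 in Cp7Fb, 1.52 in Cp36 and 3.50 in Cp38, and 3 of the 5 carried common regions, which 10.4% of all genes hold. Since the family was chosen for its calls, these counts support nothing beyond themselves. Cp7Fc held none. These genes lie inside CG33223, on the opposite strand, so 4 of the 6 NelfA-higher regions counted for CG33223 are theirs, another is coding sequence of CG12116, and 0 met coding bases of CG33223. The eggshell gene dec held 5 common regions, among them the longest on the arm (X:7871384-7873283, 1900 bp), and 1 NelfA-higher region with a score of 1.53 that lay wholly inside a common one.

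**Figure D4:**
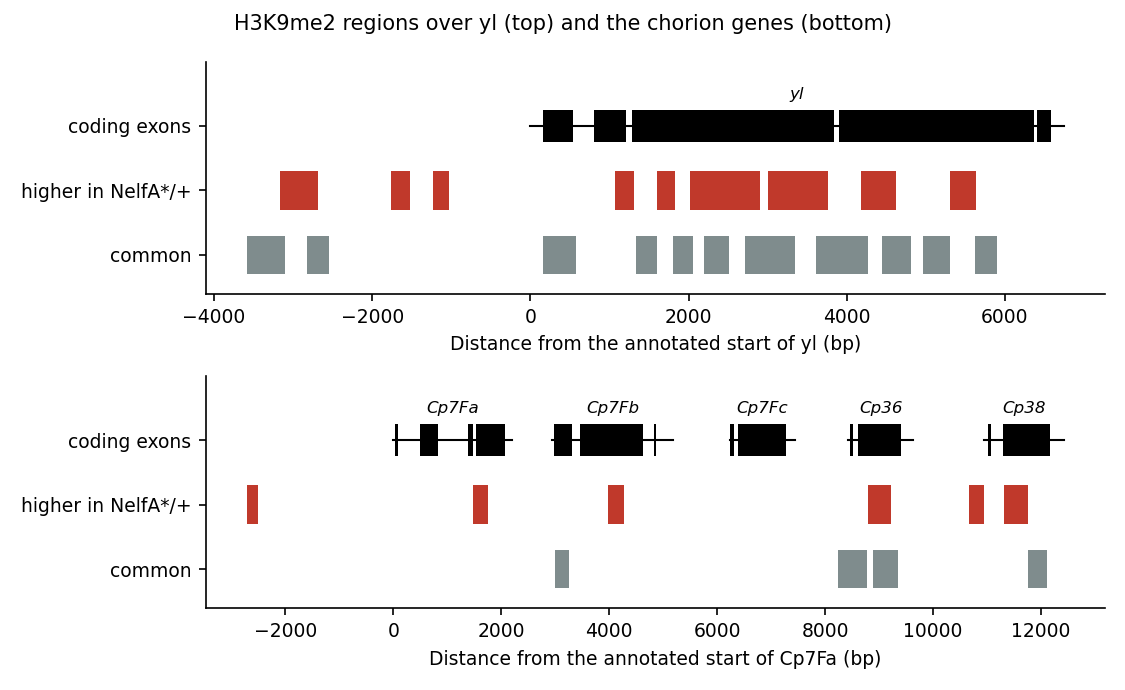
NelfA-higher (red) and common (grey) regions under the coding exons (black) of yl and of the 5 chorion genes, by distance from the first annotated base. In yl 6 NelfA-higher regions are interspersed with 9 common regions, and each chorion gene but Cp7Fc carries 1 NelfA-higher region.

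The largest number in 1 gene was in trol, which encodes perlecan, a proteoglycan of basement membranes (X:2470460-2545427). It held 8 NelfA-higher regions with scores from 1.46 to 3.61, 13 common regions with scores up to 0.804 and 1 control-higher region with a score of 3.19. The control-higher region, at X:2477340-2477576, lay 22 bp from a common region. All 3 kinds of call thus met within 1 gene, where NelfA-higher regions were spread from the exons at the 3′ end to 44.1 kb from the 5′ end.

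Several long genes contain other genes, to which part of their regions belong. The span of Ten-a, a teneurin of synaptic partners, held 6 NelfA-higher regions. Of these, 3 lay in coding sequence of nested genes, 2 in Muc11A and the one with the highest score, 4.81, in CG2750, and 3 lay in coding sequence of Ten-a (1.67, 2.75 and 1.96). Within the 139 kb of Sh, the Shaker potassium channel, were 5. A single one lay in coding sequence of Sh (1.48) and another in noncoding sequence of an intron (3.77), while 1 was coding sequence of nested CG6867 (1.72) and 2 of nested CG15373 (1.62 and 2.46). The potassium channel gene eag held 3 (4.09, 1.66 and 2.06), all in its own coding sequence. The microtubule-associated gene futsch held 2 in its own coding sequence (4.12 and 4.27) and 1 in that of the taste receptor gene Gr2a (1.57), and no common region. Notch (N) held 2, scored 1.56 and 1.77, and both overlapped common regions. The receptor tyrosine kinase gene sev held 3, with scores of 4.61, 3.99 and 1.48, and none overlapped a common region.

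In sog, which encodes a secreted antagonist of BMP signals, the calls divided a single coding stretch. Common regions at X:15605522-15605945 and X:15606166-15607354 were joined without a gap by a NelfA-higher region scored 3.55. A second, scored 1.40, lay inside the longer common region, and the third, printed above and scored 6.13, extended from its end. Of the other genes with most NelfA-higher regions, CG34417 held 6 (1.68 to 3.00), goe 6 (1.25 to 2.57), CG9095 5 (1.88 to 4.75), the chitinase gene Cht6 4 (1.38 to 5.84) and the actin-bundling gene f 4 (2.28 to 3.48). Coding bases of the gene itself were met by 6 of 6 in CG34417, 4 of 5 in CG9095 and all 4 in both Cht6 and f. In goe this was so for 1 of 6, while 4 lay in coding sequence of the nested cuticle protein genes TwdlX (2), TwdlY (1) and Twdlalpha (1).

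The 5 longest NelfA-higher regions were coding throughout. They were in CG11409 (X:1330968-1331905, 938 bp, score 3.396), yl (892 and 750 bp), the myosin gene Myo10A (X:10941810-10942673, 864 bp, score 2.39) and the axon guidance gene NetA (X:14652269-14653088, 820 bp, score 2.73). The region in NetA lay 41.5 kb from any common region, whereas that in Myo10A touched one. The regions with the highest scores were of mixed kind. After the flea copy in OdsH came a Rt1b retrotransposon in an intron of CG42340 (X:6432427-6432677, score 7.31), a region at CG13004 and CG46306 (X:16827389-16827622, 6.82), and coding exons of CG43689 (X:4078226-4078425, 6.38) and sog.

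A list of 26 X-linked genes of dosage compensation, neurons, chromatin, development and chaperones was also examined. NelfA-higher regions lay in 5 of them (cac, Sh, rdgA, N and kirre; 19.2%, against 10.6% of all genes of the arm), and common regions in 6 (23.1% against 10.4%). These shares are not matched for gene length. The 5 genes with a NelfA-higher region were 37.4 to 394 kb long, against a median of 2.07 kb for all genes. A control-higher region lay in para alone (3.85%, against 0.832% of all genes of the arm, likewise not matched for gene length). Of the 26, 15 had no region within 5 kb. How many of all genes of the arm lack one within 5 kb was not counted, so the absences given here set no gene apart. The dosage compensation genes roX1, roX2, mof and Sxl had none within 5 kb. The chromatin genes HP1b, trr, ph-p, ph-d and fs(1)h had none either, nor had w, per and norpA. The 4 NelfA-higher regions within the 394 kb of kirre, a cell adhesion gene, scored 2.20 to 2.90 and were all coding sequence of the nested genes CG32793, CG14420 and CG14423, with 0 in coding bases of kirre itself. The region of the calcium channel gene cac scored 2.43 and that of the diacylglycerol kinase gene rdgA 1.35, both in their own coding sequence.

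Along the arm the NelfA-higher regions were uneven. Of 176 windows of 100 kb, 58 (33.0%) held none, and the 10 fullest held 93 of the 323 (28.8%). After the window at yl came X:15600001-15700000 with sog (13 NelfA-higher, 14 common), X:17200001-17300000 with f (10 and 12, and 1 control-higher), X:2400001-2500000 with trol (10 and 15, and 2 control-higher) and X:6500001-6600000 with CG34417 and dx (8 and 10). The fullest windows held many common regions too. By 1 Mb the counts ran from 8 to 36, and the longest stretch without a NelfA-higher region was 496 kb (X:6754859-7251278).

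**Figure D5:**
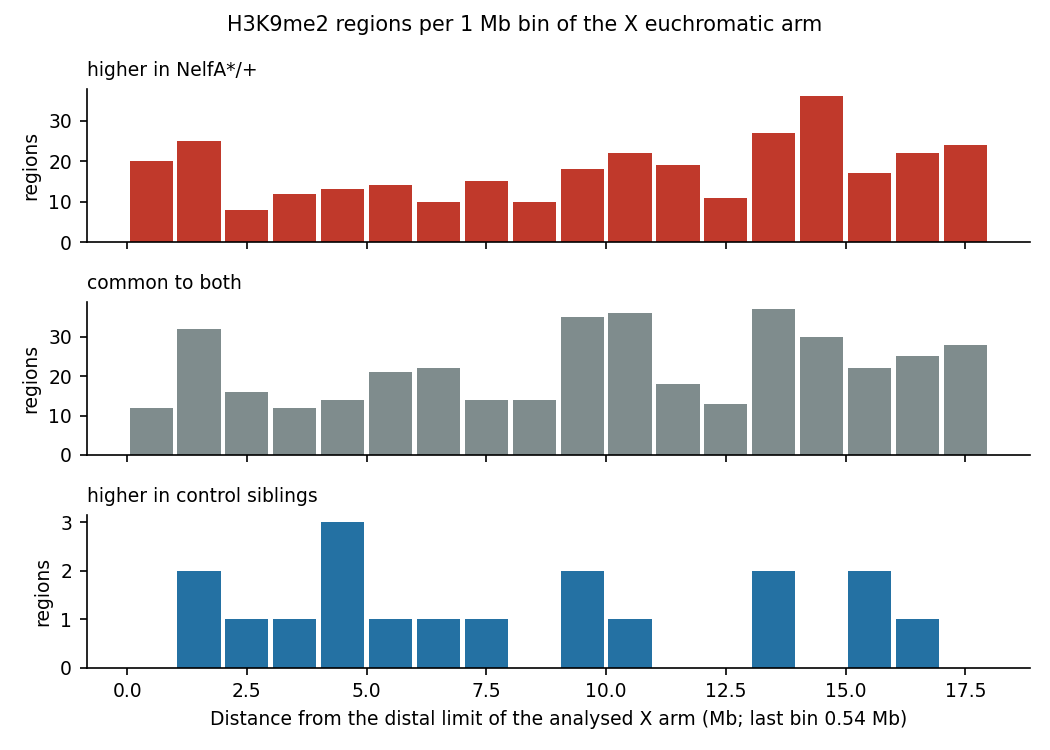
Members in each 1-Mb bin of the arm by list (axes from 0, the last bin shorter than the others). NelfA-higher regions range from 8 to 36 per bin, and control-higher regions never exceed 3.

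The 18 control-higher regions were scattered, and 1 stood apart. The region at Act5C and the noncoding RNA gene CR45668 (X:5899192-5900870) was 1679 bp long with a score of 5.78 and a GC content of 42.4%, while the next longest, in CG10920, had 428 bp. A second control-higher region, scored 2.09, lay in an intron of CR45668, so this was the only gene with 2. The others with high scores lay in coding sequence of CG2961 and of the wing gene m (X:11768259-11768502, 3.66) and in a springer retrotransposon within l(1)G0289 (X:10354876-10355101, 3.62). The sodium channel gene para held 1 (X:16505945-16506207, 2.99), the odorant receptor gene Or7a 1 (2.66) and f 1 (1.94). CG10920 and CG12239 each held 1 control-higher and 1 NelfA-higher region, with scores of 2.095 and 2.57 in CG10920 and of 2.005 and 2.48 in CG12239. No base of the chromosome lay in both differential lists, which the calling that divided the lists may itself set, so this is not read as a result. Overlap with common regions was found for 5 of the 18, and 9 lay within 1 kb of one.

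TEs were a small part of the NelfA-higher regions. They touched 15 of 323 (4.64%), against 2.98% on 2L, 4.37% on 3R, 6.66% on 3L and 17.6% on 2R, so the X arm lay within the range of the autosomal arms. The share was 10.2% in the common regions of the X arm and 3.63% in the tiles. Of 273 annotated copies, 13 carried a NelfA-higher region, 24 a common region and 1 a control-higher region. Copies of flea (2 of 4) and opus (2 of 3) carried NelfA-higher regions more than once. Among the numerous families, 1 of 82 copies of INE-1 (1.22%) and 1 of 22 of roo (4.55%) carried one, against 4.76% of all copies. The second flea region of OdsH scored 1.94, against 10.8 for the first, and both were over 100 kb from a common region. Other TE regions lay in a 17.6 copy of Tlk (4.85), a roo copy of AstA-R1 (2.64) and HMS-Beagle sequence of fne (2.21 and 3.32). Copies of 1 family share sequence, so a read from them may come from a copy elsewhere.

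Most NelfA-higher regions were made largely of sequence found once in the assembled chromosomes, with unplaced scaffolds not searched. At least 50% of the 20-base words recurred, within the region or elsewhere, in 19 NelfA-higher regions (5.88%), 53 common regions (13.2%) and 5.50% of the tiles. Among regions that touched no annotated TE these were 4 of 308 NelfA-higher (1.30%) and 12 of 360 common regions (3.33%). Under 5% recurred in 273 NelfA-higher regions (84.5%). The GAGAG motif of GAGA factor, searched on both strands in the central 200 bases, was in 26.9% of NelfA-higher and 23.9% of common regions, against 21.1% of all tiles and 25.1% of tiles with 50% to 65% GC. GAGAGAGA, which contains it, was in 1.24% of NelfA-higher regions and 1.72% of tiles. CACACACA was in 2.17% of NelfA-higher regions, below the 6.57% of all tiles and the 5.16% of tiles with 50% to 65% GC.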

How the data were processed

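The authors mapped reads of H3K9me2 ChIP and input libraries to BDGP6 with STAR 2.5 and called broad peaks with MACS2 2.1.1, with fragments extended to 200 bp. They derived differential and common regions with MACS2 bdgdiff (largest gap 100 bp, smallest length 200 bp). This likelihood ratio uses no variance between replicates, and whether replicates were pooled is not given in the sources used here. The deposited score is 1 number per region, of unnamed scale, and 0 columns of other samples were set aside. The lists used here hold no value per library, so depth is unknown. Genes and TE copies came from Ensembl release 115 and sequence from RefSeq; this TE annotation is not the authors'. Tiles were 200 bp and touched no region. Midpoints were assigned as promoter (within 1 kb of a start), exon, intron, intergenic. Arm parts left out 1.00 Mb at the telomere and 5.00 Mb at the centromere. Regions were named from the 5 highest-scoring of each differential list and the 5 longest of each list, and windows were the 5 fullest. Genes were named from the 10 with most NelfA-higher regions, the 5 with most control-higher regions and the 26 listed genes. Not every member of these sets is named. Members and lists were chosen with earlier results of these data known, and further genes were named after their values were seen. The lists hold no expression values, so head markers were not checked. Overlap and distance code was tested on 1000 simulated intervals with 0 errors. Alternatives changed thresholds, distances and limits. The software was Python 3.11.15 with matplotlib 3.10.9, scipy 1.17.1, pandas 2.3.3 and numpy 2.4.6.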

Additional observations from a re-analysis of the deposited data

How the results depend on the processing

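No paired analysis was possible because the lists hold no values per library, and for the same reason no replicate could be left out. A value was taken as moved when it left the 95% interval of the main value (Wilson for shares, order statistics for medians), which covers counting only. Of 24 alternatives, 9 stayed within it. The NelfA-higher share of differential regions was 95.2% at scores of at least 3, 95.7% at lengths of at least 400 bp, 94.2% by bases and 94.0% with limits 2 Mb further in, and moved to 91.3% after merging within 10 kb, which left 178 and 17 places. Overlap with common regions fell from 31.9% to 12.7% when 50% of the region had to be shared and to 12.1% at scores of at least 3. With promoters of 500 bp, promoter shares were 16.4% (NelfA-higher) and 13.5% (common) and exon shares 66.6% and 68.8%. With 2 kb they were 48.0% and 46.4%, and 40.2% and 38.9%. Counting regions with at least 50% soft-masked bases, rather than annotated TEs, gave 1.86% and 4.49%. The 10 fullest 100-kb windows held 28.8% of the NelfA-higher regions, and 36.4% at scores of at least 3, while the 2 fullest windows of 500 kb held 13.9%. GC medians stayed within their intervals without soft-masked bases.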

Other observations

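Values for 3 small gene families, looked up after the values had been seen, are given beside the 10.6% of all genes of the arm that hold a NelfA-higher region and the 10.4% that hold a common one. Families this small cannot be told apart from those shares by a count of 0. The Stellate genes are tandem repeats that piRNAs silence in the testis. Common regions lay in 3 of the 12 annotated copies and NelfA-higher regions in 0, and the copies share sequence, so reads cannot be assigned to 1 copy by sequence alone. A control-higher region (X:14045854-14046072, score 1.78) lay 0.699 kb from Ste:CG33247 and overlapped a common region. The betaNACtes genes had common regions in 2 of 6 and NelfA-higher regions in 0. The Ir7 ionotropic receptor genes had common regions in 5 of 7 and NelfA-higher regions in 3, Ir7e, Ir7f and Ir7g.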
